A study of Zea mays with 12 samples.

Results

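The line by temperature interaction asks whether the response of the maize embryo to 2 h at 10 °C differed between the lines 102 and 55. It was computed for each gene as the log2 fold of LT_102 over CT_102 minus the log2 fold of LT_55 over CT_55, from all 12 count columns of the expression table, 3 libraries per group. Of 33589 genes listed, 22985 passed the filter on low values and were tested, and 10604 did not. A positive interaction means that the fold of LT over CT was higher in line 102 than in line 55, whichever sign the responses had. The genes were then described by their KEGG pathways and Gene Ontology (GO) terms, as the table assigns them.

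The 12 RNA-seq libraries came from seeds imbibed for 6 h at 25 °C and then held for 2 h on germination paper, after which the embryos were isolated. LT_102 was line 102 (Ji853) at 10 °C, CT_102 the same line at 25 °C, LT_55 line 55 (Zao8-3) at 10 °C and CT_55 that line at 25 °C. The study chose line 102 as sensitive to low temperature and line 55 as resistant, and each is a single inbred line, so that traits of the line other than tolerance cannot be told apart from it. Library totals ran from 44028579 to 67873652 counts.

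In the germinating embryo, imbibition restarts respiration and translation from stored mRNA and ribosomes, while abscisic acid (ABA) signalling and seed-maturation programmes wind down and gibberellin, auxin and ethylene signalling take over. Chilling during imbibition slows membrane repair and metabolism, and plants are known to answer it through Ca2+ and mitogen-activated protein kinase (MAPK) cascades, ABA-dependent and DREB/CBF transcription factors, and changes in lipids, cell walls and osmolytes. An interaction looks for the part of such a response that is not common to both lines.

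The embryo markers were abundant in every library. The globulins glb1 and glb2, seed storage proteins of the embryo, summed to 13959 to 16264 FPKM (fragments per kilobase of transcript, scaled to sequencing depth) in LT_102, 18272 to 19475 in CT_102, 11083 to 12637 in LT_55 and 10473 to 13027 in CT_55. The 29 listed zeins, storage proteins of the endosperm, summed to 3.02 to 7.36 FPKM in LT_102, 1.51 to 2.10 in CT_102, 27.1 to 36.3 in LT_55 and 25.4 to 43.3 in CT_55. Zein transcripts were thus higher in line 55 than in line 102, and in line 102 higher at 10 °C, at levels far below those of the globulins. Other endosperm markers differed from the zeins. The gene sh2 was higher in line 102, at 2.44 to 3.22 FPKM in LT_102 and 1.89 to 2.45 in CT_102. It had 1.37 to 1.76 in LT_55 and 0.944 to 1.45 in CT_55. The gene wx1 was lower at 10 °C in line 55, with 0.175 to 0.815 in LT_55 against 1.98 to 3.67 in CT_55. The part of these transcripts in the results was not tested.

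Single genes seldom passed the test of the interaction. At an adjusted p under 0.05 (quasi-likelihood test in edgeR, Benjamini-Hochberg over all genes) 1 gene was called, 0.00435% of those tested, with an interaction below 0. DESeq2 on the same counts called 130 genes, 47 with an interaction above 0 and 83 below 0, and this 1 gene was among them. By the threshold the study used for its own comparisons, an unadjusted p under 0.05 and a change of at least 1.5-fold in either direction, edgeR called 372 genes with a positive interaction (1.62% of those tested) and 630 with a negative one (2.74%), 1002 in all (4.36%). "Called" refers below to this threshold. An unadjusted p under 0.05 without the fold threshold was reached by 1455 genes (6.33%), 585 of them positive and 870 negative.

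The calls below 0 lay mostly on the side of line 102. Of the 630 genes called negative, 441 were also called lower in LT_102 against CT_102, 77 were called higher in LT_55 against CT_55, 5 were both and 117 neither. Of the 372 called positive, 171 were called lower in LT_55 against CT_55, 90 were called higher in LT_102 against CT_102, 3 were both and 114 neither. The interaction is built from the same libraries as the responses, so these counts describe it and do not add evidence. The response of line 102 had 181 genes called higher (0.787%) and 1031 called lower (4.49%), and that of line 55 had 162 higher (0.705%) and 442 lower (1.92%), or 5.27% and 2.63% of genes in all. Without the fold threshold an unadjusted p under 0.05 was reached by 13.0% of genes in line 102 and 4.43% in line 55. At an adjusted p under 0.05 (edgeR), line 102 had 7 genes higher (0.0305%) and 149 lower (0.648%), and line 55 had 2 higher (0.0087%) and 10 lower (0.0435%). Genes called in both lines numbered 136, which is 11.2% of the 1212 calls of line 102 and 22.5% of the 604 calls of line 55, with 128 in the same direction and 8 in opposite directions.

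The gene called at the adjusted threshold was LOC100273332, an uncharacterized protein at chr6:103351592-103352548 (B73 RefGen_v4, as are all positions below). It had 16.7, 17.8 and 13.3 FPKM in LT_102, against 60.7, 63.3 and 47.3 in CT_102. In line 55 it had 12.9, 12 and 11.4 FPKM in LT_55, against 14, 14.4 and 13.0 in CT_55. At 10 °C line 102 thus stood near the level of line 55, and the 2 groups of line 102 did not overlap. The interaction was -1.65 on the log2 scale (SE 0.18, adjusted p = 0.0225 by edgeR), and it lay between -1.75 and -1.54 with any single library left out. The adjusted p rose above the threshold, to between 0.0502 and 0.098 by edgeR, without CT_102 replicate 1, CT_102 replicate 2, CT_55 replicate 1, LT_102 replicate 1, LT_55 replicate 1 or LT_55 replicate 2.

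Other genes with low p-values showed the same form. The gene cl7681_1a encodes a high affinity cationic amino acid transporter, which moves basic amino acids across membranes. It had 16.6, 16.1 and 17.9 FPKM in LT_102, against 30.1, 29.9 and 26.1 in CT_102. It had 17.9, 16.9 and 17.0 in LT_55, against 17.3, 16.4 and 17.6 in CT_55, so the 2 groups of line 55 overlapped. Its interaction was -0.77 (SE 0.12, adjusted p = 0.073 by edgeR), which missed the adjusted threshold. The cytidine deaminase cda1, which salvages pyrimidines, had 0.848, 0.957 and 0.729 FPKM in LT_102, against 2.98, 3.04 and 2.41 in CT_102. It had 6.34, 6.15 and 12.3 in LT_55, against 8.06, 7.88 and 7.78 in CT_55, with an interaction of -1.80 (SE 0.34, adjusted p = 0.16 by edgeR). For cda1, CT_102 already lay below line 55, and LT_102 lay farther below it.

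Among the positive calls, line 55 carried several of the lowest p-values. LOC100281434, a mitochondrial chaperone of the BCS1 type (in yeast BCS1 inserts the Rieske protein into respiratory complex III), had 14.6, 11.3 and 14.2 FPKM in LT_102, against 24.7, 23.3 and 16.3 in CT_102. It had 7.45, 7.44 and 5.62 in LT_55, against 60.7, 30.3 and 26.5 in CT_55. It was lower at 10 °C in both lines, and more so in line 55, which gave an interaction of 1.84 (SE 0.39, adjusted p = 0.29 by edgeR). The cytochrome P450 gene LOC100279536 had the same form, with 4.69, 4.67 and 2.85 FPKM in LT_102 against 7.69, 7.44 and 5.48 in CT_102, and 0.677, 0.278 and 0.373 in LT_55 against 6.36, 3.99 and 3.53 in CT_55. Its interaction was 2.62 (SE 0.46, adjusted p = 0.14 by edgeR). LOC100274132 was uncharacterized and moved in opposite directions, with 24.4, 20.1 and 18.8 FPKM in LT_102 against 12.5, 15.6 and 13.8 in CT_102, and 10.4, 12.1 and 11.0 in LT_55 against 16.2, 16.3 and 16.3 in CT_55. Its interaction was 1.14 (SE 0.18, adjusted p = 0.079 by edgeR).

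LOC111589219, annotated as a granule-bound starch synthase, an enzyme that makes amylose in storage tissue, was nearly absent from the cold embryos of line 102. It had 0, 0 and 1.97 FPKM in LT_102, against 17.4, 12 and 23.1 in CT_102. It had 95.9, 69.5 and 111 in LT_55, against 53.0, 53.4 and 7.96 in CT_55. Its fitted fold depends on how the libraries at 0 are treated and is not given. Counts were 0, 0 and 12 in LT_102, against 103, 68 and 133 in CT_102. The endosperm marker wx1 went the other way in line 55, at 0.175 to 0.815 FPKM in LT_55 against 1.98 to 3.67 in CT_55. Whether LOC111589219 shared reads with other starch synthase genes was not tested.

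**Figure D1:**
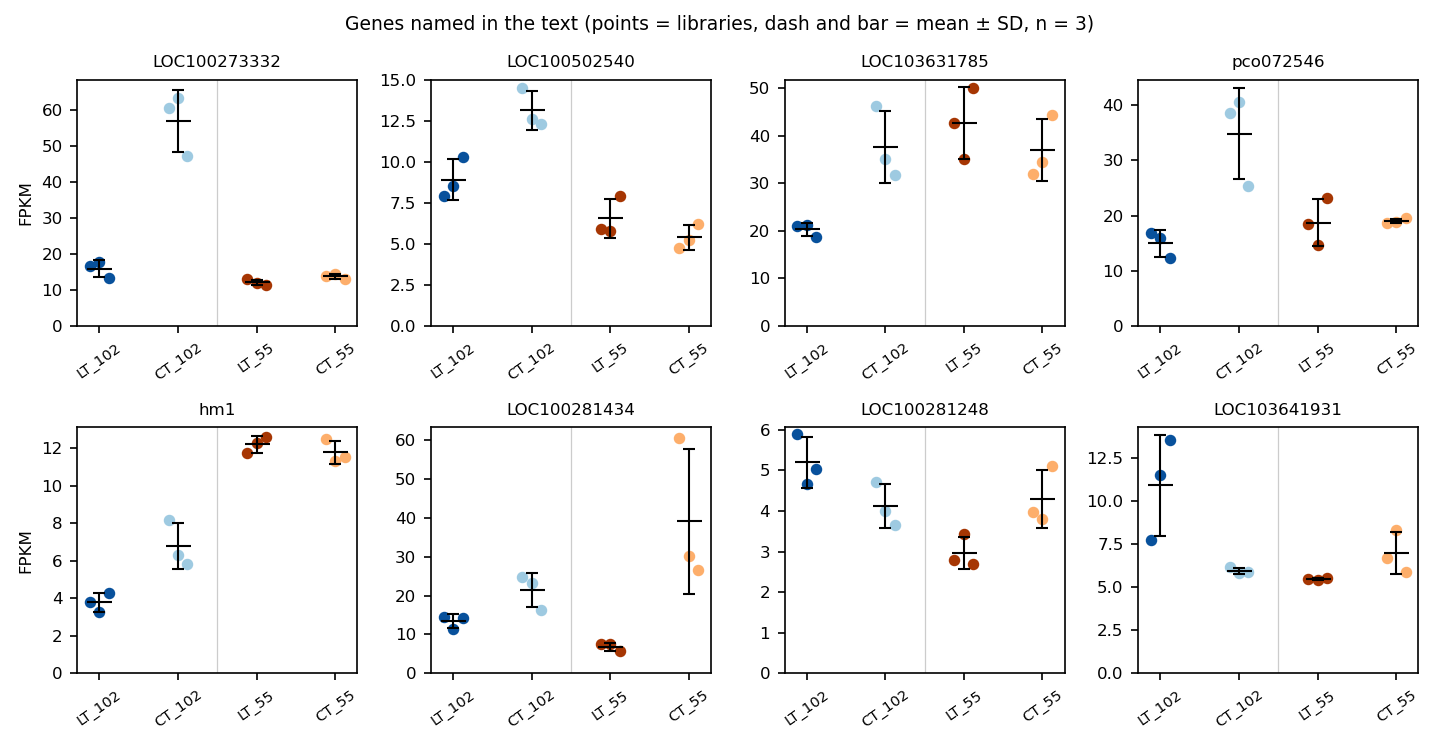
FPKM of 8 genes in each library, with LT_102, CT_102, LT_55 and CT_55 from left to right, points for the 3 libraries and a dash with bar for the mean ± SD. LOC100273332 stood at 13.3 to 17.8 in LT_102 and at 47.3 to 63.3 in CT_102, with line 55 between 11.4 and 14.4 in all 6 libraries.

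As gene sets, 107 KEGG pathways and 722 GO terms had at least 20 tested genes. The median interaction over all tested genes was 0.00, with 49.7% of genes above 0. The set medians ran from -0.20 to 0.59 for KEGG pathways, of which 72 lay below 0 and 35 above 0. For GO terms they ran from -0.25 to 0.83, with 407 below 0 and 315 above 0. Most sets lay close to 0, and 12 pathways and 94 terms had a median beyond 0.1 in either direction. In 9 pathways and 87 terms the median response was above 0 in line 102 and below 0 in line 55, and in 20 pathways and 140 terms it was below 0 in line 102 and above 0 in line 55. The medians carry no test, and sets share genes and libraries.

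The 5 highest KEGG medians belonged to the photosynthetic antenna proteins (0.59), photosynthesis (0.29), lysine biosynthesis (0.16), monobactam biosynthesis (0.16) and the folate one-carbon pool (0.10). The 5 lowest belonged to other types of O-glycan biosynthesis (-0.20), fatty acid elongation (-0.19), tropane, piperidine and pyridine alkaloid biosynthesis (-0.18), cutin, suberine and wax biosynthesis (-0.11) and flavonoid biosynthesis (-0.11). Among GO terms the highest were regulation of cellular respiration (0.83), light harvesting in photosystem I (0.59), pigment binding (0.57), chlorophyll binding (0.41) and cell proliferation (0.26). The GO terms with the lowest medians were oligopeptide transport (-0.25), regulation of programmed cell death (-0.25), xyloglucan metabolic process (-0.24), polysaccharide biosynthetic process (-0.23) and nucleotide-sugar metabolic process (-0.20). Of these GO terms with the highest medians, 3 hold the same 21 antenna genes.

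**Figure D2:**
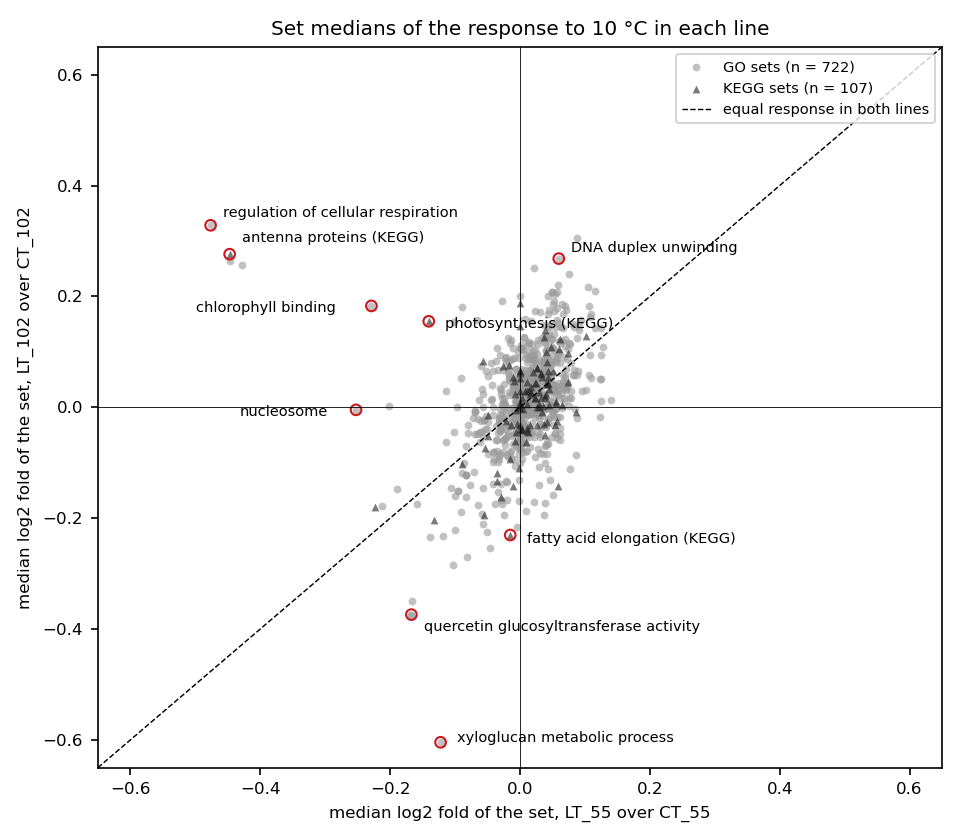
Median log2 fold of LT over CT in line 102 (vertical axis) against line 55 (horizontal axis) for every set with at least 20 tested genes. GO terms are circles, KEGG pathways triangles, sets circled in red are named, and the dashed line marks equal responses. Antenna proteins lie at 0.28 in line 102 and -0.45 in line 55, and the xyloglucan term at -0.60 in line 102 and -0.12 in line 55.

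Light-harvesting genes had a higher fold of LT over CT in line 102 than in line 55. The antenna proteins bind chlorophyll and pass light energy to the photosystems. The study kept its germination tests on paper in the dark at both temperatures, and its account of the RNA sampling does not mention light. Of the 21 tested genes of the antenna pathway, 20 had an interaction above 0, and the median was 0.59 against 0.00 over all tested genes. LOC100283212 (1.74), lhcb5 (1.55) and LOC100284154 (0.40) reached 0.5 FPKM in 3 libraries only in line 102. LOC100273752 (-0.56), the member below 0, did so only in line 55. The tally thus includes genes that passed the filter through 1 line. The median response was 0.28 in line 102, where 18 of 21 were above 0, and -0.45 in line 55, where 19 of 21 were below 0. The mean of the members, as log2 CPM (counts scaled to library size) minus the CT mean of the line, was 0.34, 0.16 and 0.21 in LT_102, against 0.11, -0.12 and 0.00 in CT_102. It was -0.61, -0.45 and -0.41 in LT_55, against 0.24, -0.24 and 0.00 in CT_55. In both lines the cold libraries lay outside the range of the warm ones, above it in line 102 and below it in line 55. The median stayed between 0.50 and 0.77 with any library left out.

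Of the antenna genes, 4 were called positive (19.0%) and 0 negative, and none passed the adjusted threshold. LOC100281248, chlorophyll a-b binding protein 1 at chr7:152283196-152284273, had 5.90, 4.66 and 5.03 FPKM in LT_102, against 4.71, 4.01 and 3.66 in CT_102. It had 2.78, 3.43 and 2.69 in LT_55, against 3.97, 3.80 and 5.12 in CT_55. Its interaction was 0.87 (SE 0.24), and the groups overlapped in line 102 but not in line 55. LOC100282214, chlorophyll a-b binding protein 8, had 5.56, 5.42 and 4.65 FPKM in LT_102, against 3.89, 3.15 and 4.08 in CT_102. It had 1.70, 2.01 and 3.02 in LT_55, against 3.72, 3.22 and 2.94 in CT_55, with an interaction of 1.03 (SE 0.32). The other called genes were lhcb7 (0.69, SE 0.30) and lhcb5 (1.55, SE 0.55), both light-harvesting proteins of the Lhcb family. The gene lhcb5 falls outside the rule for named genes, since its mean was under 1 FPKM, and lhcb7 lost its call when any of 8 libraries was left out.

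These transcripts were scarce. The 21 genes averaged 3.08 to 3.35 FPKM in LT_102, 2.60 to 2.85 in CT_102, 2.42 to 2.52 in LT_55 and 2.59 to 3.07 in CT_55. On summed FPKM, too, the cold libraries of line 102 lay above and those of line 55 below the warm ones of the same line. Members of this family are alike in sequence, so reads may have been split between them in the counting, and the values of single members are uncertain to that extent. The 21 genes make up nearly all of the light-harvesting (23 genes) and pigment-binding (22 genes) terms and 58.3% of the chlorophyll-binding term, so those terms are not further evidence.

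The photosynthesis pathway (which includes photosystem subunits and ferredoxins) shares no gene with the antenna pathway. Its 67 tested genes had a median of 0.29, with 43 above 0, and 7 were called positive (10.4%) and 1 negative (1.49%). The median response was 0.16 in line 102 and -0.14 in line 55. The result was less steady than for the antenna genes: without CT_55 replicate 1 the median was 0.13, and among genes with at least 0.5 FPKM in 3 libraries of each line it was 0.09. The calls above 0 numbered 3 without LT_55 replicate 2, and 4 without CT_102 replicate 1 or LT_102 replicate 1. The wider thylakoid membrane term, with 294 genes, had a median of 0.06. The median ranged from 0.02 without CT_55 replicate 3 to 0.10 without LT_55 replicate 3. The term had 10 positive calls (3.40%) and 6 negative (2.04%), against 1.62% and 2.74% over all tested genes. Positive calls were 6 without LT_102 replicate 1 or LT_55 replicate 2, and negative calls were 1 without CT_102 replicate 1 and 3 without LT_102 replicate 3 or LT_55 replicate 2.

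The highest GO median, 0.83 for regulation of cellular respiration, came from a set of a particular kind. Its 50 tested genes are mostly hypothetical proteins, 34 of them on unplaced scaffolds and 13 on chromosome 6. In yeast the term belongs to Tar1, a mitochondrial protein encoded antisense within the ribosomal DNA repeat. Near-identical copies share reads, so that the members are not independent of each other and their single values are uncertain. Of the 50 genes, 39 lay above 0, 18 were called positive (36.0%) and 0 negative. LOC111590542, one of the 3 members with the lowest p-values among the called, had 63.1, 26.4 and 29.6 FPKM in LT_102, against 23.5, 29.6 and 33.6 in CT_102. It had 17.0, 22.4 and 19.7 in LT_55, against 50.5, 32.1 and 30.2 in CT_55. Replicate 1 stood apart in LT_102 and in CT_55.

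Single libraries carried this set. Its mean level relative to the CT mean was 0.84, -0.19 and 0.03 in LT_102 against -0.29, 0.01 and 0.28 in CT_102, and -0.41, -0.16 and -0.41 in LT_55 against 0.36, -0.36 and 0.00 in CT_55. Line 102 overlapped between temperatures and so did line 55. Without LT_102 replicate 1 the median was 0.40 and 5 genes were called, and 5 were called without CT_55 replicate 1. The calls numbered 7 without CT_102 replicate 1 or CT_102 replicate 2, 8 without LT_55 replicate 1 and 11 without LT_55 replicate 3. The set took 0.158% to 0.283% of counts in LT_102, 0.156% to 0.217% in CT_102, 0.392% to 0.477% in LT_55 and 0.473% to 0.681% in CT_55.

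The translation machinery leaned to positive interactions by small amounts. Ribosomal proteins, 510 tested genes in the KEGG pathway, had a median of 0.10 with 353 above 0 (69.2%), from a median response of 0.07 in line 102 and -0.03 in line 55. The calls were 5 positive (0.98%) and 4 negative (0.784%), both below the background shares, but they moved with single libraries. Positive calls ran from 3 without CT_55 replicate 1 to 10 without LT_55 replicate 2, with 8 without CT_102 replicate 2, CT_55 replicate 2, CT_55 replicate 3 or LT_102 replicate 3. Negative calls were 2 without CT_102 replicate 1, 8 without CT_55 replicate 3 and 7 without LT_55 replicate 2. Without CT_55 replicate 1 the median was 0.03. The mean level of the ribosomal genes was 0.056, 0.078 and 0.023 in LT_102, against -0.038, 0.016 and 0.022 in CT_102, and -0.03, 0.00 and 0.01 in LT_55, against 0.11, -0.06 and -0.06 in CT_55, so that the groups overlapped in line 55 and lay next to each other without overlap in line 102.

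Aminoacyl-tRNA biosynthesis, the enzymes that load amino acids on tRNAs, had a median of 0.07 over 113 genes (0.05 without CT_102 replicate 1, 0.11 without CT_102 replicate 3), with 4 called positive (3.54%) and 1 negative. The positive calls numbered 2 without CT_102 replicate 1 or LT_102 replicate 3, and 7 without LT_55 replicate 1. The gene with the lowest p-value was LOC103641931, an organellar asparagine-tRNA ligase, with 7.75, 11.5 and 13.5 FPKM in LT_102, against 6.15, 5.84 and 5.86 in CT_102. It had 5.50, 5.39 and 5.54 in LT_55, against 6.71, 8.31 and 5.89 in CT_55. All cold libraries lay above the warm ones in line 102 and below them in line 55, and the interaction was 1.23 (SE 0.28, adjusted p = 0.35 by edgeR). Lysine biosynthesis had a median of 0.16 over 29 genes, of which 21 lay above 0, and a mean of 0.42. Its 1 called gene went the other way: LOC103644325, an aspartokinase at the entry of the pathway, had an interaction of -1.24 (SE 0.35).

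Chromatin and DNA sets leaned to positive values too. The nucleosome term, which includes the histones around which DNA is wound, had 30 of 35 members above 0 and a median of 0.24. The median response was 0.00 in line 102 and -0.25 in line 55, where 32 of 35 were below 0. The mean level was -0.29, -0.08 and -0.61 in LT_55, against 0.24, 0.08 and -0.31 in CT_55, with overlap, and 0.05, 0.01 and -0.14 in LT_102, against 0.01, 0.07 and -0.09 in CT_102. Without CT_55 replicate 1 the median was 0.07, without LT_55 replicate 3 it was 0.12, and without CT_55 replicate 3 it was 0.36. The 1 gene called positive, LOC103646024, was not called in 6 of the 12 fits that leave out a library, and was named after its values were seen. LOC100194139, a histone H3.3 gene, had an interaction of -0.40 (SE 0.12), against the direction of the set and short of the fold threshold.

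DNA duplex unwinding, a term for helicases and other proteins that part the strands, had a median of 0.25 over 24 genes, 19 of them above 0, and it kept between 0.20 and 0.30 with any library left out. The mean was 0.49. The median response was 0.27 in line 102 and 0.06 in line 55. The mean level was 0.43, 0.42 and 0.30 in LT_102, against -0.08, -0.10 and 0.18 in CT_102, without overlap, and 0.06, 0.17 and 0.29 in LT_55, against -0.07, 0.10 and -0.03 in CT_55. The genes called were 3 positive and 1 negative. Without CT_102 replicate 1 or CT_102 replicate 2 only 1 was positive, and without CT_55 replicate 2 the negative calls were 3. Cell proliferation had 31 of 41 genes above 0 and a median of 0.26, which stayed between 0.20 and 0.32. Its 2 called genes, LOC111590505 and LOC111589675, are hypothetical proteins with the same description, 1 on an unplaced scaffold and 1 on chromosome 6. Most genes of the respiration term lie there too. Whether reads were shared with that term or between the copies was not tested for these 2 genes. Neither was called without CT_55 replicate 1 or without LT_102 replicate 1, which had 16.4 FPKM of LOC111590505 and 11.2 of LOC111589675, against at most 7.53 and 4.23 in the other LT_102 libraries. The calls of the set were 7 without CT_102 replicate 3, 6 without LT_102 replicate 2, 5 without LT_102 replicate 3, 4 without CT_55 replicate 3 and 1 without CT_102 replicate 1, CT_55 replicate 2 or LT_102 replicate 1.

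**Figure D3:**
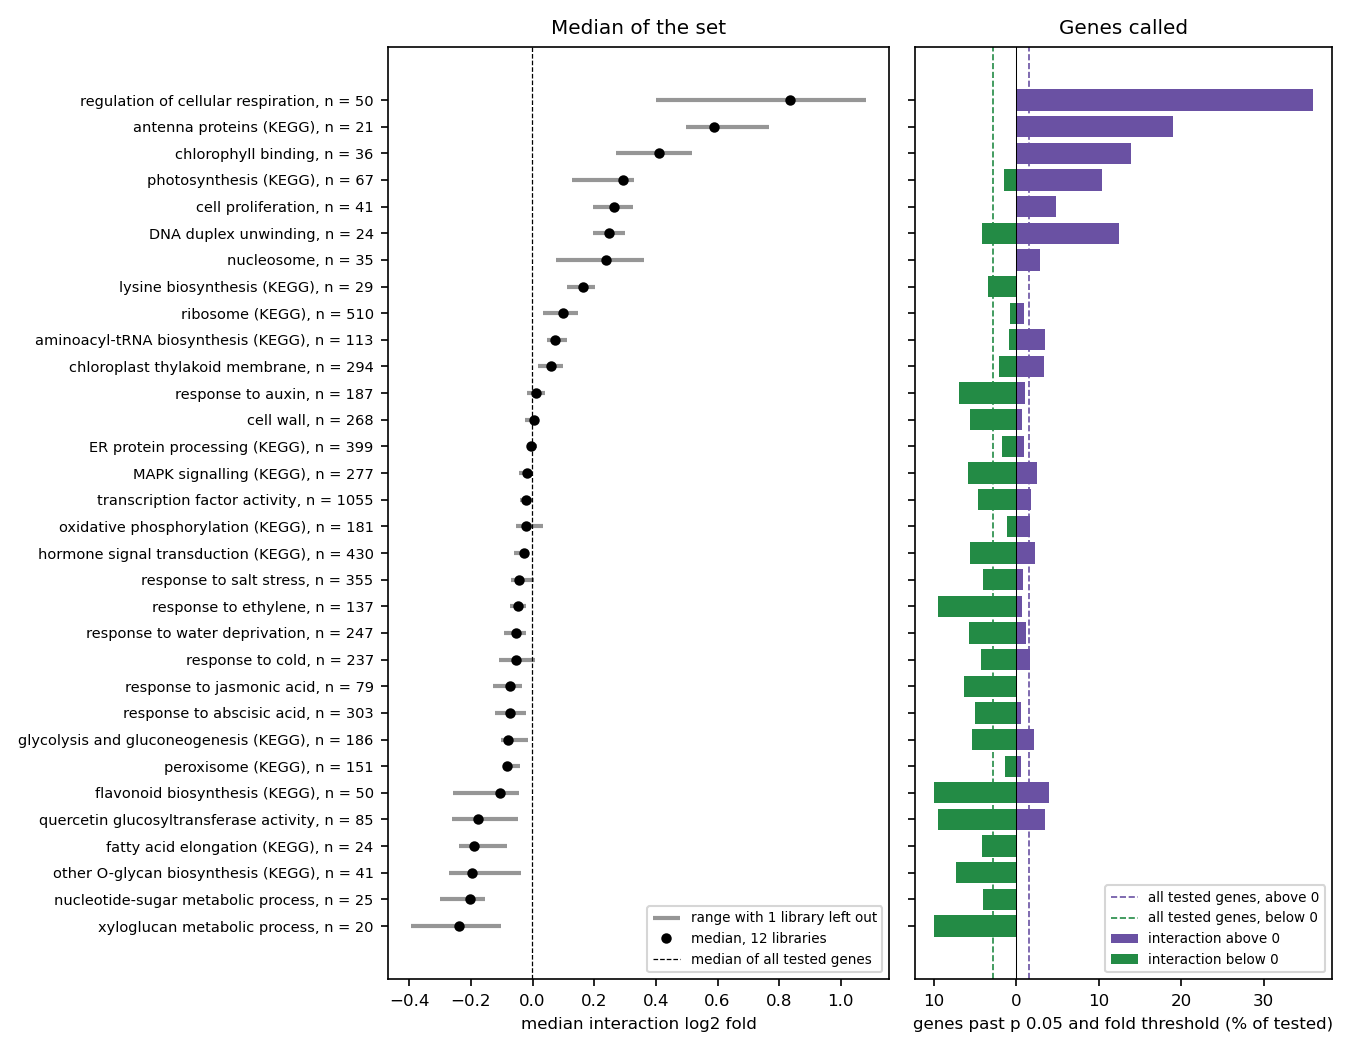
Left, median interaction log2 fold of each described set (point) with its range when 1 library is left out (grey bar) and the median of all tested genes (dashed line). Right, percent of tested members called positive (purple, to the right) and negative (green, to the left) with the shares over all tested genes (dashed lines, 1.62% and 2.74%). Hormone, MAPK and transcription factor sets have medians near 0 and more negative calls than the dashed line.

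Signalling genes showed another pattern, with medians near 0 and an excess of strong negative interactions. In the hormone signal transduction pathway 24 of 430 genes were called negative (5.58%) and 10 positive (2.33%), with a median of -0.03. In the MAPK pathway 16 of 277 were called negative (5.78%) and 7 positive (2.53%), with a median of -0.02. Among genes with transcription factor activity 49 of 1055 were called negative (4.64%) and 19 positive (1.80%), with a median of -0.02. The background was 2.74% negative and 1.62% positive. In line 102 the hormone pathway had 43 of 430 genes called lower and 5 higher at 10 °C. Over all tested genes the shares in line 102 were 4.49% lower and 0.787% higher. In line 55 the pathway had 14 lower and 2 higher, where the shares over all tested genes were 1.92% and 0.705%.

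The hormone responses by GO term went the same way. Response to ethylene had 13 of 137 genes called negative (9.49%) and 1 positive, response to auxin 13 of 187 (6.95%) and 2, response to jasmonic acid 5 of 79 (6.33%) and 0, and response to ABA 15 of 303 (4.95%) and 2. The median was -0.05 for ethylene, 0.01 for auxin, -0.07 for jasmonic acid and -0.07 for ABA, and the last ranged from -0.12 without CT_55 replicate 3 to -0.02 without LT_55 replicate 3. The hormone, MAPK, transcription factor and these 4 response sets overlap, and together they held 1817 tested genes, 85 called negative (4.68%) and 32 positive (1.76%).

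One control library of line 102 weighed on these counts. Without CT_102 replicate 1 the 85 negative calls became 47 (2.59%) and the share over all tested genes became 1.92%. The positive share was then 1.71%, against 1.33% over all tested genes. The hormone pathway then had 11 negative calls, the MAPK pathway 7 (2.53%, fewer than its 3.61% positive), the transcription factors 28, the ethylene response 7, the auxin response 5 and the jasmonic acid response 3. The auxin response had 6 or 7 without CT_102 replicate 2, LT_102 replicate 1 or LT_102 replicate 3, and the jasmonic acid response had 3 without CT_102 replicate 2, LT_102 replicate 1 or LT_55 replicate 1. Positive calls of the 4 response terms stayed between 0 and 4 with any library left out. The positive calls of the hormone pathway were 4 without LT_102 replicate 3 and 6 without LT_102 replicate 1 or LT_55 replicate 1. The mean level of the hormone pathway was -0.15, -0.16 and -0.09 in LT_102, against 0.07, 0.00 and -0.07 in CT_102, and -0.02, -0.04 and -0.06 in LT_55, against -0.01, 0.03 and -0.02 in CT_55. CT_102 replicate 3 lay closest to the cold libraries, and CT_102 replicate 1 farthest from them. The mean over all tested genes was also lower in LT_102 (-0.04, -0.04 and -0.05) than in CT_102 (0.01, 0.01 and -0.03).

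Within the hormone and MAPK sets, genes of ABA signalling were among the negative ones with the lowest p-values. LOC100502540, annotated as ABSCISIC ACID-INSENSITIVE 5, a bZIP factor that in Arabidopsis holds back germination, lies at chr3:179446820-179448657. It had 7.92, 8.54 and 10.3 FPKM in LT_102, against 14.5, 12.7 and 12.3 in CT_102. It had 5.95, 5.82 and 7.92 in LT_55, against 4.75, 5.23 and 6.23 in CT_55. The interaction was -0.84 (SE 0.21, adjusted p = 0.41 by edgeR), with no overlap in line 102 and overlap in line 55. LOC100285149, an ABA response element binding factor of the same bZIP family, had 41.9, 45.1 and 51.8 FPKM in LT_102, against 82.2, 66.9 and 61.2 in CT_102. It had 50.0, 44.7 and 55.2 in LT_55, against 40.8, 44.9 and 51.8 in CT_55, with an interaction of -0.72 (SE 0.18).

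Upstream of these factors, PYL5 bears the name of the PYL family of ABA receptors. It was scarce, with 0.528, 0.360 and 0.226 FPKM in LT_102, against 1.68, 1.05 and 0.728 in CT_102, and 1.58, 1.72 and 1.34 in LT_55, against 1.69, 2.08 and 1.37 in CT_55. Its interaction was -1.47 (SE 0.44). The ethylene receptor gene etr2 had 20.5, 21.0 and 19.9 FPKM in LT_102, against 43.7, 35.2 and 29.3 in CT_102. It had 33.5, 31.0 and 26.2 in LT_55, against 32.6, 37.9 and 29.0 in CT_55. Its interaction of -0.68 (SE 0.20) fell to -0.54 without CT_102 replicate 1 and to -0.58 without CT_55 replicate 3, both short of the fold threshold. LOC100280488, a SAUR gene of the early auxin response, had 0.887, 0.408 and 0.119 FPKM in LT_102, against 3.77, 2.61 and 2.07 in CT_102. It had 2.88, 2.58 and 0.907 in LT_55, against 2.12, 2.55 and 1.32 in CT_55, with an interaction of -2.65 (SE 0.78).

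Transcription factors gave values in both directions. LOC103631785 is annotated as an AP2-like factor of the BBM1 type, a family that promotes embryo identity in other plants. It had 21.0, 21.2 and 18.8 FPKM in LT_102, against 46.2, 35.1 and 31.7 in CT_102. It had 42.8, 35 and 50.1 in LT_55, against 32.0, 34.4 and 44.5 in CT_55, with an interaction of -1.09 (SE 0.24, adjusted p = 0.33 by edgeR). The homeobox gene umc1988 had 0.952, 1.15 and 1.03 FPKM in LT_102, against 2.99, 2.76 and 1.80 in CT_102, and 3.46, 2.52 and 3.59 in LT_55, against 1.90, 2.27 and 3.06 in CT_55 (interaction -1.66, SE 0.33). On the positive side, the AP2 domain gene LOC100283357 had 2.80, 2.79 and 2.66 FPKM in LT_102, against 2.61, 3.15 and 1.12 in CT_102. It had 0.375, 0.286 and 0.50 in LT_55, against 1.31, 1.34 and 3.65 in CT_55, with an interaction of 2.68 (SE 0.64). None of these passed the adjusted threshold.

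**Figure D4:**
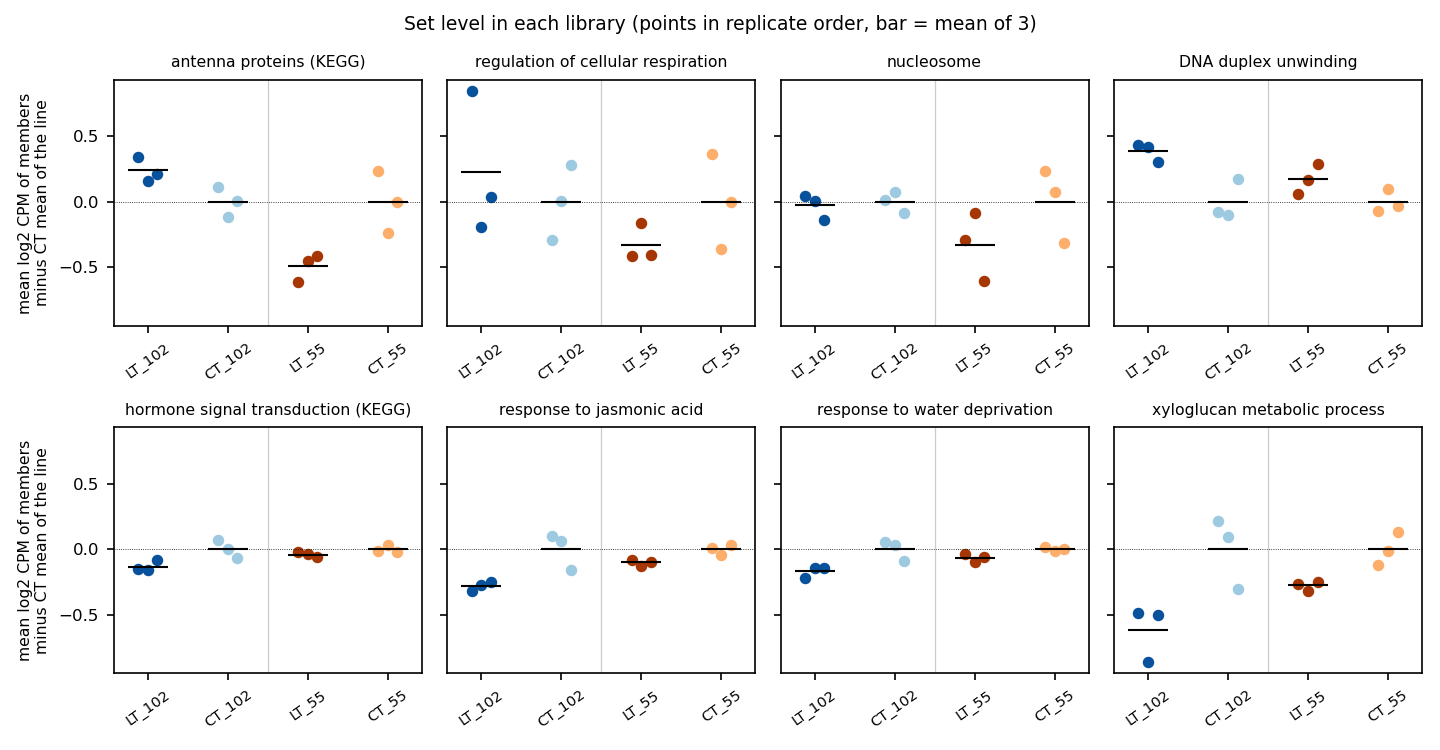
Mean log2 CPM of the members of 8 sets in each library, minus the CT mean of the same line, with LT_102, CT_102, LT_55 and CT_55 from left to right and a bar for the mean of 3. The antenna proteins lie at 0.16 to 0.34 in LT_102 and at -0.61 to -0.41 in LT_55, whereas the respiration term spreads from -0.19 to 0.84 within LT_102.

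The stress-response terms also had more negative than positive calls, as had all tested genes (2.74% against 1.62%). Response to water deprivation had 14 of 247 genes called negative (5.67%) and 3 positive, response to salt stress 14 of 355 (3.94%) and 3, and response to cold 10 of 237 (4.22%) and 4. Their medians were -0.05, -0.04 and -0.05. Without CT_102 replicate 1 the negative shares were 4.05%, 3.10% and 2.95%, against 1.92% over all tested genes. The mean level of the water deprivation genes was -0.22, -0.14 and -0.14 in LT_102, against 0.05, 0.03 and -0.09 in CT_102, and -0.04, -0.10 and -0.06 in LT_55, against 0.01, -0.02 and 0.00 in CT_55. It was thus lower at 10 °C in both lines, with no overlap, and by more in line 102. The mean over all tested genes moved the same way by less. It was -0.04, -0.04 and -0.05 in LT_102, against 0.01, 0.01 and -0.03 in CT_102. In line 55 it was -0.02, -0.01 and -0.03 in LT_55, against 0.01, 0.01 and -0.01 in CT_55, with overlap. The set levels were not corrected for this. The cold and salt medians were 0.01 and 0.00 without LT_55 replicate 3, and the cold term had 17 negative calls without CT_55 replicate 3. Positive calls were 2 for cold without LT_102 replicate 1, 1 for water deprivation without CT_55 replicate 3 or LT_55 replicate 3, and for salt 6 without CT_55 replicate 2 and 7 without LT_55 replicate 2. The aldo-keto reductase gene pco147797a, of a family that detoxifies aldehydes, was one of the cold-response genes, with 72.6, 71.2 and 60.8 FPKM in LT_102, against 159, 120 and 85.5 in CT_102. It had 76.7, 69.9 and 79.3 in LT_55, against 81.7, 80.3 and 78.6 in CT_55. Its interaction of -0.73 (SE 0.22) was -0.52 without CT_102 replicate 1. Other cold-response genes went the other way. LOC103633049, annotated as dehydration-responsive element-binding protein 1A, had 9.28, 9.11 and 7.54 FPKM in LT_102, against 14.6, 12.9 and 10.3 in CT_102. It had 0.460, 0.733 and 0.0588 in LT_55, against 3.27, 1.76 and 1.10 in CT_55. Its interaction was 1.76 (SE 0.73), and the call was lost when any of 5 libraries was left out. LOC103640973 had an interaction of 0.80 (SE 0.22).

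Sugar and lipid metabolism leaned below 0. Glycolysis and gluconeogenesis had a median of -0.08 over 186 genes, with 72 above 0, 10 called negative (5.38%) and 4 positive (2.15%). Positive calls were 2 without CT_102 replicate 2, and the median was -0.02 without LT_55 replicate 3. Phosphoglycerate mutase pco072546, which interconverts the phosphoglycerates of lower glycolysis, had 16.8, 16.0 and 12.2 FPKM in LT_102, against 38.5, 40.6 and 25.5 in CT_102. It had 18.5, 14.6 and 23.2 in LT_55, against 18.7, 18.8 and 19.5 in CT_55, with an interaction of -1.19 (SE 0.27). As for LOC100273332, LT_102 stood near the level of line 55. The pyruvate kinase gene LOC100191614, at the last step of the pathway, had 7.25, 5.81 and 4.62 FPKM in LT_102, against 17.8, 16.9 and 10.9 in CT_102. It had 10.7, 10.8 and 8.32 in LT_55, against 8.95, 12.6 and 8.22 in CT_55, with an interaction of -1.35 (SE 0.30).

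The cytosolic fructose-1,6-bisphosphatase LOC100284739, a control point of sucrose synthesis in gluconeogenesis, moved in opposite directions. It had 11.3, 12.4 and 12.6 FPKM in LT_102, against 15.7, 14.8 and 14.7 in CT_102. It had 29.0, 26.6 and 27.2 in LT_55, against 17.5, 20.8 and 22.0 in CT_55. Neither line overlapped between temperatures, and the interaction was -0.77 (SE 0.13, adjusted p = 0.14 by edgeR). It lay between -0.83 and -0.68 with any library left out.

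The peroxisome pathway, which includes the breakdown of stored fatty acids, had a median of -0.08 over 151 genes, of which 55 lay above 0. Calls were few, 2 negative and 1 positive, both below background. Negative calls were 5 without CT_55 replicate 3, 4 without CT_102 replicate 2, 1 without CT_55 replicate 1, CT_55 replicate 2 or LT_55 replicate 3, and 0 without CT_102 replicate 1. The median was -0.05 without CT_102 replicate 3 and -0.04 without LT_55 replicate 3. LOC103654433, an uncharacterized member and its called positive gene, had 8.70, 6.65 and 6.21 FPKM in LT_102, against 8.80, 7.35 and 7.53 in CT_102. It had 1.96, 2.57 and 2.36 in LT_55, against 8.62, 7.44 and 4.48 in CT_55, an interaction of 1.43 (SE 0.35). Fatty acid elongation, which builds very long chains such as those of waxes, had a median of -0.19 over 24 genes, 8 above 0, and a mean of -0.063. The median response was -0.23 in line 102 and -0.01 in line 55. It was -0.12 without CT_55 replicate 1 and -0.08 without LT_55 replicate 3.

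Flavonoid biosynthesis was among the 5 lowest KEGG medians. It had 5 of 50 genes called negative (10.0%) and 2 positive, and a median of -0.11, which ranged from -0.26 without CT_55 replicate 1 to -0.05 without LT_55 replicate 2. Its 5 negative calls were 3 without CT_102 replicate 1, CT_55 replicate 2, CT_55 replicate 3, LT_102 replicate 1 or LT_55 replicate 2, and its 2 positive calls were 0 without LT_102 replicate 3 or LT_55 replicate 3. In line 102 it had 11 of 50 genes called lower and 0 higher, and in line 55 it had 1 lower and 0 higher. The shares called lower over all tested genes were 4.49% in line 102 and 1.92% in line 55. The hm1 gene, which the table places in this pathway, encodes the reductase that protects maize from the toxin of Cochliobolus carbonum. It had 3.79, 3.28 and 4.28 FPKM in LT_102, against 8.15, 6.32 and 5.82 in CT_102, and 11.7, 12.3 and 12.6 in LT_55, against 12.5, 11.3 and 11.5 in CT_55. Its interaction was -0.88 (SE 0.18, adjusted p = 0.23 by edgeR), with overlap in line 55 and none in line 102.

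The quercetin 3-O-glucosyltransferase term, a family of enzymes that attach glucose to flavonoids and hormones, had 8 of 85 genes called negative (9.41%) and 3 positive (3.53%). It was lower at 10 °C in both lines, with a median response of -0.37 in line 102 and -0.17 in line 55, and a median interaction of -0.18 that was -0.05 without LT_55 replicate 2, -0.06 without CT_102 replicate 1, -0.08 without CT_55 replicate 3 and -0.11 without CT_102 replicate 3. Negative calls were 14 without CT_102 replicate 3, and positive calls were 5 without CT_55 replicate 3 and 1 without LT_55 replicate 1. LOC103630127, a hydroquinone glucosyltransferase, had 2.44, 2.33 and 1.67 FPKM in LT_102, against 8.06, 5.83 and 4.64 in CT_102. It had 8.50, 9.06 and 5.43 in LT_55, against 12.1, 9.71 and 7.66 in CT_55, with an interaction of -1.16 (SE 0.36).

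Xyloglucan metabolism, whose enzymes loosen and reassemble the hemicellulose of growing walls, had the lowest response of the described sets in line 102, with a median of -0.60, against -0.12 in line 55. The mean level was -0.49, -0.86 and -0.50 in LT_102, against 0.21, 0.09 and -0.31 in CT_102, and -0.26, -0.32 and -0.25 in LT_55, against -0.12, -0.02 and 0.13 in CT_55. Both lines were lower at 10 °C without overlap. The median interaction was -0.24 over 20 genes, 12 of them below 0, but their mean was 0.0057. The median ranged from -0.39 without CT_55 replicate 3 to -0.10 without LT_55 replicate 3. It was -0.13 without CT_102 replicate 1, -0.14 without LT_102 replicate 1 and -0.16 without CT_55 replicate 1. Its 2 genes called negative, gpm859 and LOC100501905, were both lost without CT_102 replicate 1. The cell wall term had 15 of 268 genes called negative (5.6%) and 2 positive, with a median of 0.00. The positive calls were 0 without CT_102 replicate 1, 6 without CT_55 replicate 3, 5 without LT_55 replicate 2, 4 without CT_55 replicate 2, and 1 without CT_102 replicate 2, CT_102 replicate 3, LT_102 replicate 1 or LT_55 replicate 3.

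Sugar donors for glycans and walls gave the evenest negative set. In nucleotide-sugar metabolism 4 of 25 genes lay above 0, and the median of -0.20 stayed between -0.30 and -0.15 with any library left out. Only 1 gene was called negative (4.0%, against 2.74% over all tested genes) and 0 positive. Negative calls were 0 without CT_102 replicate 1, CT_102 replicate 2 or CT_55 replicate 2. They were also 0 without LT_102 replicate 1, LT_102 replicate 2 or LT_55 replicate 1. Without CT_55 replicate 3, LT_102 replicate 3 or LT_55 replicate 2 they were 2. The mean level was -0.23, -0.21 and -0.25 in LT_102, against 0.13, 0.05 and -0.18 in CT_102, and 0.10, 0.01 and 0.10 in LT_55, against -0.05, -0.05 and 0.10 in CT_55. Line 102 did not overlap and line 55 did, and CT_102 replicate 3 again stood near the cold libraries. The O-glycan pathway had a median of -0.20 over 41 genes, with 3 called negative (7.32%) and 0 positive. It was -0.04 without LT_55 replicate 3 or CT_102 replicate 1, and negative calls were 5 without LT_102 replicate 2.

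Some large sets had medians at about 0. Protein processing in the endoplasmic reticulum, 399 genes, had a median of -0.01, with 4 called positive (1.0%) and 7 negative (1.75%). Its positive calls were 2 without CT_102 replicate 1, CT_55 replicate 2 or LT_102 replicate 2. Oxidative phosphorylation, 181 genes, had a median of -0.02 (mean 0.070), with 3 positive and 2 negative. The positive calls ran from 0 without LT_55 replicate 2 to 5 without LT_102 replicate 3, with 1 without CT_102 replicate 1, CT_55 replicate 3, LT_102 replicate 1 or LT_55 replicate 1. The negative calls ran from 0 without LT_55 replicate 3 to 5 without LT_55 replicate 2, with 1 without CT_102 replicate 1, CT_55 replicate 2 or LT_102 replicate 3. Both medians lay within 0.1 of 0 in every fit that left out a library. The genes called negative in oxidative phosphorylation were mha2 and mha4, plasma membrane proton pumps that the table places in this pathway. The gene mha2 had 23.1, 16.6 and 19.3 FPKM in LT_102, against 43.3, 28.6 and 25.1 in CT_102, and 25.4, 23.8 and 35.1 in LT_55, against 15.1, 22.2 and 31.9 in CT_55. Its interaction was -0.99 (SE 0.37), and it was not called without CT_102 replicate 1 (-0.75) or LT_55 replicate 3 (-0.78). Over 43 KEGG pathways listed for their known part in germination, metabolism or stress, 38 had a median within 0.1 of 0, and so had 34 of 35 GO terms with enough genes. Negative calls outnumbered positive ones in 22 of these pathways and 25 of these terms, and the reverse held in 12 pathways and 6 terms. Over all tested genes negative calls also outnumbered positive ones, by 630 to 372.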

How the data were processed

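The deposited table holds read counts per gene and FPKM values in 12 libraries of isolated maize embryos, 4 groups of 3 biological replicates. The authors made poly(A) libraries, and the submitters' processing notes name HISAT, StringTie, edgeR and B73 RefGen_v4, with versions not given in the sources used here. The authors also normalized the deposited counts to FPKM. Columns with the authors' own fold changes and p-values were not used. KEGG pathways, GO terms and positions were taken from the table. A planned search of promoters was left out, as no promoter sequences were used here.

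A gene was tested if 3 or more of the 12 libraries had at least 0.5 FPKM. The counts of all 4 groups were fitted in one model (edgeR 4.0.16, quasi-likelihood, TMM scaling, R 4.3.3) without a replicate block. The interaction p-values were adjusted by Benjamini-Hochberg over all tested genes. Standard errors were derived from the F statistic as |log2 fold| / √F. Sets with at least 20 tested genes were described by counts and medians, with no set test. The genes named are those with an adjusted p under 0.05, the 10 lowest p-values in each direction, and up to 3 in each direction per set at p under 0.05. The last 2 rules required a mean of at least 1 FPKM and at least 0.5 FPKM in 3 libraries of each line. Exceptions are stated. The gene sets and the members were chosen with earlier results of these data known.

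The replicates of a group are called biological in the study's methods, which do not say how far seeds or days were separate, so p-values measure the spread between these libraries. The interaction test was also run on simulated counts for 22985 genes. At an adjusted p under 0.05 it recovered 57.4% of genes changed by an absolute log2 fold of 1. Of those changed by 2 it recovered 84.8%, at a false share of 5.96%. The simulation gave each gene the same mean in both lines and a spread set by its level alone. Changes were put only in LT_102, in genes of at least 1 FPKM on average. These shares need not hold for the real libraries. Alternatives were the filter, scaling, DESeq2 1.42.0, limma 3.58.1 on log2(FPKM + 0.1) or log2(FPKM + 1), counts divided by 4 (low counts pile up at multiples of 4), the fold threshold, the mean in place of the median, a replicate block and leaving out each library. Python 3.11.15 was used for tables and figures.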

Additional observations from a re-analysis of the deposited data

Results flagged for a closer look

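LOC100273332 had an interaction of -1.65 on the log2 scale and was the 1 gene for which the difference between the lines passed the adjusted threshold of edgeR's quasi-likelihood test. The antenna protein pathway, with a median interaction of 0.59, and the chlorophyll binding term, with 0.41, stood out because the mean of their members lay above all 3 CT_102 libraries in every LT_102 library and below all 3 CT_55 libraries in every LT_55 library. For these sets the difference was not tested. They share 21 genes and are 1 pattern. Groups of 3 libraries were too small for a test of single outlying libraries.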

How the results depend on the processing

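The set medians kept their size within the spread between libraries in 358 of 384 comparisons under other settings and in 361 of 384 with a library left out, over 32 described sets. Some directions turned. Without CT_102 replicate 1 the MAPK pathway had 7 negative calls and 10 positive ones, and the cold and salt medians turned positive in a fit that left out a library. Among all sets with at least 20 tested genes, 45 of 107 pathways and 308 of 722 terms kept the sign of their median in every such fit.

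The count at the adjusted threshold was 1 by edgeR, 130 by DESeq2 and 3 by limma on log2(FPKM + 0.1), and ranged from 0 to 5 with a library left out. Deviations of libraries with the same replicate number correlated by 0.033 on average (lowest -0.052, highest 0.289). For other numbers the average was -0.017 (lowest -0.272, highest 0.104). Between CT_55 and LT_55 the same number gave -0.009 for replicate 1, 0.190 for replicate 2 and 0.289 for replicate 3. The libraries of line 55 may thus be paired in part, which the main fit left out. With a replicate block the adjusted count was 3, and 986 genes were called by the study's threshold, of which 853 were shared with the 1002 of the fit without it. Positive calls were 563 with no filter, 181 with at least 0.5 FPKM in 3 libraries of each line, 163 by limma on log2(FPKM + 1) and 585 with no fold threshold. Negative calls were 951 with no filter and 355 at a log2 fold of at least 1. Positive calls made up 37.1% of all calls, 26% with the filter on each line and 27.4% by limma on log2(FPKM + 1). With a library left out, positive calls ranged from 296 (without LT_102 replicate 1) to 509 (without CT_55 replicate 3) and negative calls from 442 (without CT_102 replicate 1) to 834 (without CT_102 replicate 3).

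By limma on log2(FPKM + 1) the median was 0.37 for antenna proteins, 0.24 for chlorophyll binding, 0.11 for photosynthesis, -0.10 for fatty acid elongation and -0.11 for O-glycans, a scale that understates changes of scarce genes. Photosynthesis had 0.11 with at least 1 FPKM in 3 libraries and 0.090 with the filter on each line, where glycolysis had -0.13. With no filter the medians were -0.058 for auxin, -0.084 for ethylene, -0.15 for jasmonic acid, -0.29 for fatty acid elongation and -0.039 for protein processing. The mean in place of the median was 0.42 for lysine biosynthesis, 0.49 for DNA duplex unwinding, -0.10 for MAPK, -0.037 for auxin, -0.18 for ethylene, -0.19 for jasmonic acid, -0.12 for cold, -0.094 for salt, -0.063 for fatty acid elongation, 0.0057 for xyloglucan, -0.063 for the cell wall, -0.31 for nucleotide-sugars and 0.070 for oxidative phosphorylation. The causes were not tested.

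With a library left out the medians ranged from 0.50 to 0.77 for antenna proteins, 0.13 to 0.33 for photosynthesis, 0.27 to 0.52 for chlorophyll binding, 0.40 to 1.08 for cellular respiration, 0.03 to 0.15 for ribosome, -0.12 to -0.022 for ABA, -0.11 to 0.0070 for cold, -0.071 to 0.0042 for salt, -0.10 to -0.016 for glycolysis, -0.088 to -0.042 for peroxisome, -0.24 to -0.085 for fatty acid elongation, -0.26 to -0.045 for flavonoids, -0.27 to -0.037 for O-glycans and -0.30 to -0.15 for nucleotide-sugars.

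With 3 libraries a group, the test on simulated counts recovered 57.4% of interactions with an absolute log2 fold of 1. This holds for the simulated spread and for genes of at least 1 FPKM, and the share in the real libraries was not tested. Scarce sets such as the antenna proteins carry more counting error per gene.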
